A study of Mus musculus with 38 samples.

Results

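ATP-binding cassette (ABC) transporters, organic anion transporting polypeptides (OATPs, encoded by Slco genes) and organic ion transporters of the SLC22 family were described in mouse livers after a chemical carcinogen, with and without hepatocyte c-Met. Members were the probes whose single gene symbol begins with Abc and a subfamily letter from a to g, or with Slco or Slc22a, each followed by a number. Abca3 and Slc22a7 were set aside by the rule. This left 135 of the 36607 probes on the array and 80 of the 17501 genes with a symbol of their own. There were 25 probes for 14 ABCA genes, 13 for 9 ABCB genes, 21 for 10 ABCC genes, 5 for 3 ABCD genes and 10 for 4 ABCE and ABCF genes. ABCG had 8 probes for 6 genes, SLC22 28 for 19 and SLCO 25 for 15. A single probe measured 41 of the genes and up to 4 probes the other 39. Where a gene had several, its first-listed probe is given and the others are named as such.

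Hepatocytes take bile acids, hormones and drugs from blood through uptake carriers such as the OATPs and organic ion transporters on their sinusoidal face. ABC pumps, which hydrolyse ATP, export bile salts, phospholipid, cholesterol and conjugates across the canalicular face into bile, and others return conjugates to blood. Further ABC proteins move lipids out of macrophages and hepatocytes, carry fatty acids into peroxisomes or serve mitochondria, and the ABCE and ABCF proteins are soluble factors of translation. Transcription of many of these genes in liver depends on nuclear receptors that sense bile acids, sterols and xenobiotics.

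The study asked what c-Met, the tyrosine kinase that binds hepatocyte growth factor, does in liver carcinogenesis. All 20 mice were males given 10 micrograms per gram of body weight of N-nitrosodiethylamine (DEN), a carcinogen that hepatocytes activate, intraperitoneally once at 14 days of age. Control mice were Alb-Cre +/-, strain B6129. Knockout mice were Alb-Cre +/-; Met Fl/Fl, strain 129SV/C57BL6, so Cre, driven by the albumin promoter, was present in both and genotype and strain label cannot be told apart. There were 5 mice per genotype at 3 months and 5 at 5 months after DEN per the design text, although the labels give ages of 12 and 20 weeks. Every liver was hybridised on 2-colour arrays against 1 reference, RNA pooled from 5 wild-type male B6129 livers aged 12 weeks, for which no DEN is stated. Values are log2 ratios of liver over reference, 1 per mouse, and carry no absolute level, so levels of different genes are not compared. In whole liver, fewer cells of a type and less RNA per cell cannot be told apart.

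Directions below assume that Cy5 is the numerator of the deposited ratio, a likely reading that no label states. With it the fetal genes H19 and Afp reached 3.31 and 2.51 above the reference in single mice. Were Cy3 the numerator, each higher would become lower and each lower higher. Both dye orientations were present for 18 mice, and 5-month knockouts 2 and 3 had 1 each (liver in Cy3 and in Cy5). The array with liver in Cy5 of 5-month control 4 correlated at -0.61 to -0.48 with the 10 arrays of that orientation at 3 months, and at 0.14 to 0.27 with the same orientation of the other 4 controls of 5 months. Its dye partner mirrored it more than in any other mouse (-0.70). Its labelled direction was kept, and values are also given with its sign turned. At 3 months both arrays of each mouse correlated positively before the dyes were aligned (0.34 to 0.51), where values that follow the liver would give a negative correlation. Levels against the reference at 3 months, their adjusted p included, are therefore weakly settled. In 5-month controls these correlations ran from -0.70 to -0.23, but in 5-month knockouts 1, 4 and 5 they were -0.15, 0.18 and -0.03. Levels in 5-month knockouts are thus also less settled than in 5-month controls. The genotype difference at 5 months sets groups of unlike dye behaviour against each other. Arrays came in runs of consecutive mAdb numbers. All 5-month controls and 5-month knockouts 1 and 2 lay in 1 run and knockouts 3, 4 and 5 in another, and no run held both ages, so age and run cannot be told apart and ages were not tested against each other. The single Met probe did not separate the genotypes (means -0.81 and -0.39 at 3 months and -0.73 and -0.78 at 5 months, control then knockout, adjusted p = 0.655 and 0.979), and whether it lies in the deleted part is not known here.

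No member passed the test between genotypes, but the 2 genes that the rule sets aside did at 5 months, so the count of 0 is for the members and not for the families. Abca3, a lipid transporter known from lung lamellar bodies, had means of -1.15 in 5-month controls and 0.32 in knockouts (difference 1.47 ± 0.22, adjusted p = 0.0103), and its second probe gave 0.96 ± 0.16 (adjusted p = 0.0158). Slc22a7 (OAT2), an organic anion carrier, had -0.02 and -1.03 with no overlap (-1.0038 ± 0.19, adjusted p = 0.0478). At 3 months it differed by -0.87 ± 0.19 (adjusted p = 0.130) and Abca3 by 0.10 (adjusted p = 0.960). At 3 months 0 of the 135 members were called by limma at an adjusted p under 0.05, where 0.0355% of all probes were, and at 5 months 0 of 135 against 0.145%. The test of whether the genotype difference itself differed between ages called 0 of 135 members and 0% of all probes. At an unadjusted p under 0.05 there were 15 members at 3 months, 11 at 5 months and 10 in the difference of differences, which is 11.1%, 8.15% and 7.41% of the members beside 7.96%, 10.5% and 7.74% of all probes. The smallest adjusted p among members was 0.374, 0.143 and 0.529. At an unadjusted p under 0.001 the methods' t-test gave 0 members of 63 probes in all at 3 months. At 5 months it gave 1 (Abca5, second probe) of 242, and 0 after adjustment at both ages. Quantile normalisation of the arrays called 4 of the 135 members at 5 months, given below with their genes, beside 766 of all 36607 probes.

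Nor did the members lie to one side. At 3 months 65 probes lay higher and 70 lower in knockouts, with a median difference of -0.00 (0.02 after centring each array on its median) beside -0.02 over all probes (0.00 after centring). At 5 months 75 lay higher and 60 lower, and the medians were 0.03 and 0.01. By family, the medians at 3 months ran from -0.27 for SLCO (9 higher, 16 lower) to 0.22 for ABCD (4 higher, 1 lower), and at 5 months from -0.03 for SLCO to 0.12 for ABCA (15 higher, 10 lower). The genotype difference had the same sign in both dye orientations in 77 members (57.0%) at 3 months and 61 (45.2%) at 5 months, beside 57.2% and 55.1% of all probes.

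**Figure D1:**
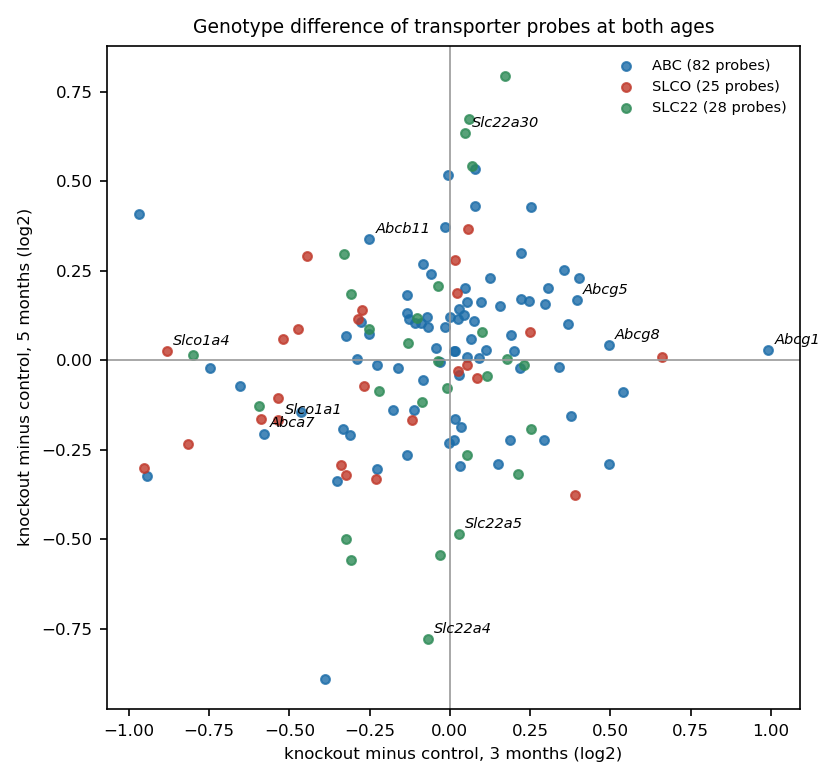
Genotype difference of each of the 135 probes, knockout minus control in log2 units, at 3 months (horizontal axis) and 5 months (vertical axis), with ABC, SLCO and SLC22 probes in different colours. No point passed the limma test at either age, the 3-month differences reach from -0.97 to 0.99 and the 5-month ones from -0.89 to 0.80.

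Sequences upstream of 4 sets of transporter starts are shown for some genes of smallest p between genotypes or in the difference of differences. These sequences belong to the paired genes Abcg5 and Abcg8, neighbouring Slco1a1 and Slco1a4, and Abcb11. They come from RefSeq on build GRCm38.p6, 5′ to 3′ towards the named gene. Capitals mark matches on either strand to AGGTCA, the hexamer that many nuclear receptors bind, and to AGATAA, which factors of the GATA family bind. TGACNNNGC, the core of the antioxidant response element, was also searched and its letters were not found in any of the 4 windows. The motifs do not overlap in these windows. The first sequence is the 109 bases that separate the starts of Abcg5 and Abcg8, which are transcribed away from each other (chr17:84683012-84683120, plus strand). The others are the 250 bases before the start of Slco1a1 (chr6:141946963-141947212, minus strand), Slco1a4 (chr6:141856221-141856470, minus strand) and Abcb11 (chr2:69342617-69342866, minus strand).
Abcg5 and Abcg8: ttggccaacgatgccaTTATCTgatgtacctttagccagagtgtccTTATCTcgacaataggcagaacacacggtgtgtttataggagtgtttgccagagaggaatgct
Slco1a1: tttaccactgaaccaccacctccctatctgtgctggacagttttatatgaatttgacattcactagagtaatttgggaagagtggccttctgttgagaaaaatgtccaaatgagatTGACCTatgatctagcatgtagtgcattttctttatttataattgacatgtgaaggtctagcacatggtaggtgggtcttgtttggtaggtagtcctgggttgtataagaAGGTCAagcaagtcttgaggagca
Slco1a4: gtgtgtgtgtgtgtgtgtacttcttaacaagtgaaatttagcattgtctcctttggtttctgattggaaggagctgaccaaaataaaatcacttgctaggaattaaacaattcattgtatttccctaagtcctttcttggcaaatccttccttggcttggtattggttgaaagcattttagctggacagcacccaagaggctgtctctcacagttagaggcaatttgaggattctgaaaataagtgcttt
Abcb11: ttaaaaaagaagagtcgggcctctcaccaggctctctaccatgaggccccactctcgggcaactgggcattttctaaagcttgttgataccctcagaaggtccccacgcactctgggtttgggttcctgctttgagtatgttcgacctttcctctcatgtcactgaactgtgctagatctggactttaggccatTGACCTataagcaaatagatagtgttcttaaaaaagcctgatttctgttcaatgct

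The stretch between Abcg5 and Abcg8 held 2 matches to AGATAA, both read on the minus strand. AGGTCA was matched at 2 places before Slco1a1, at 1 before Abcb11 and nowhere in the Slco1a4 window. These are matches of letters, not measured binding. The 250 bases before Slc22a30, also among the genes of smallest p, were searched too, held none of the 3 motifs and are not shown. Of all 32851 promoters in the table, 14.0% held AGGTCA, 9.99% AGATAA and 10.2% TGACNNNGC in their 250 upstream bases, and 3.98% held AGATAA in 109. Promoters were matched for 66 of the 80 genes, as 78 entries, of which 12.8%, 11.5% and 10.3% held the 3 motifs in 250 bases.

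Canalicular exporters were measured by 9 probes for 8 genes. Abcb11, the bile salt export pump, was below the reference in both genotypes at 5 months and near it at 3 months. Its log2 ratios in the 5 controls of 5 months were -1.31, -0.77, -0.40, -0.90 and -0.67, and in the 5 knockouts -0.39, -0.70, -0.64, -0.24 and -0.38. All 10 livers lay below the reference, and the genotypes overlapped. The means were -0.81 ± 0.33 (SD, n = 5; adjusted p = 4.622e-05 against the reference) and -0.47 ± 0.19 (adjusted p = 0.003421), or 1.75-fold and 1.39-fold lower. At 3 months the controls had -0.01, 0.19, 0.27, 0.21 and 0.14 and the knockouts 0.20, -0.28, -0.14, -0.08 and -0.16, and neither mean passed the test against the reference (adjusted p = 0.263 and 0.539).

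Between genotypes Abcb11 differed by -0.25 ± 0.15 (SE) at 3 months and 0.34 ± 0.15 at 5 months (adjusted p = 0.730 and 0.426). The difference between these, 0.59 ± 0.21, was among the 4 smallest p-values of that comparison among the members, and its adjusted p was 0.529. At 5 months all 5 knockouts lay above the control mean, with differences of 0.47 in the arrays with liver in Cy5 and 0.31 in those with liver in Cy3. Within the shared run, knockouts 1 and 2 against the 5 controls, it was 0.26.

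Abcc2 (MRP2), which exports glutathione and glucuronide conjugates and bilirubin diglucuronide, was below the reference in each of the 4 groups. Controls of 3 months had -0.96, -0.49, -0.67, -0.35 and -1.003 and knockouts -0.99, -0.88, -1.02, -0.74 and -0.20. At 5 months the controls had -0.35, -0.35, -0.49, -0.89 and -0.33 and the knockouts -0.32, -0.31, -0.39, -0.42 and -0.52. Every one of the 20 livers was below the reference and the genotypes overlapped at both ages. The 4 means were -0.69, -0.76, -0.48 and -0.39 (adjusted p = 0.0002771, 0.0001548, 0.005975 and 0.0188). A second probe had means of -0.46, -0.54, -0.22 and 0.05 and passed in the 2 groups of 3 months.

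Abcb4 (MDR2), the flippase that supplies phosphatidylcholine to bile, was above the reference in all 4 groups. Controls of 3 months had 0.44, 0.41, 0.52, 0.56 and 0.15 and knockouts 0.62, 0.69, 0.70, 0.62 and 0.92. The 3-month groups did not overlap, and their difference of 0.30 ± 0.17 was not called (adjusted p = 0.721). At 5 months the controls had 0.55, 1.05, 0.24, -0.08 and 0.07 and the knockouts 0.72, 0.56, 0.37, 0.32 and 0.64, and these groups overlapped. The 4 means were 0.42, 0.71, 0.36 and 0.52, with adjusted p of 0.013, 0.0003171, 0.029 and 0.004217 against the reference.

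Abcg5 and Abcg8 encode the partners of the sterol transporter that secretes cholesterol into bile, and start from the 109 shared bases shown above. For Abcg8 the controls of 3 months had 0.71, 0.15, -0.05, 0.80 and 0.00 and the knockouts 0.90, 0.64, 0.91, 0.85 and 0.79. The knockouts were close together and the controls spread over their range and below it. For Abcg5 the controls had 0.42, -0.00, -0.57, 0.27 and 0.01 and the knockouts 0.53, 0.23, 0.39, 0.56 and 0.40, and the groups overlapped. The differences were 0.50 ± 0.20 and 0.40 ± 0.15 (adjusted p = 0.525 and 0.468). At 5 months they were 0.04 and 0.17 (adjusted p = 0.983 and 0.786).

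Against the reference both passed in 3 groups, the 3-month controls being the exception. Abcg8 means were 0.82 in 3-month knockouts and 0.56 and 0.60 at 5 months (adjusted p = 0.0004158, 0.008055 and 0.005163). Abcg5 means were 0.42, 0.42 and 0.58 (adjusted p = 0.006284, 0.007858 and 0.0008085).

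Of the drug exporters of the canaliculus, Abcg2 (BCRP) had means of 0.51, 0.42, 0.20 and 0.31 and passed against the reference at 3 months in both genotypes (adjusted p = 0.005241 and 0.0193). Abcb1a and Abcb1b both encode P-glycoprotein and are related copies that may share probe signal. Abcb1b had means of 0.98, 0.32, 0.79 and 0.72, but in 3-month controls it read -0.28 with liver in Cy5 and 2.23 with liver in Cy3. Abcb1a means were 0.23, -0.05, 0.65 and 0.75, with -1.40 and 1.86 by orientation in 3-month controls. The orientations of these copies thus opposed each other at 3 months. Over the canalicular list, 3 probes lay higher and 6 lower in knockouts at 3 months, and 8 higher and 1 lower at 5 months, none called, with medians of -0.08 and 0.11.

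**Figure D2:**
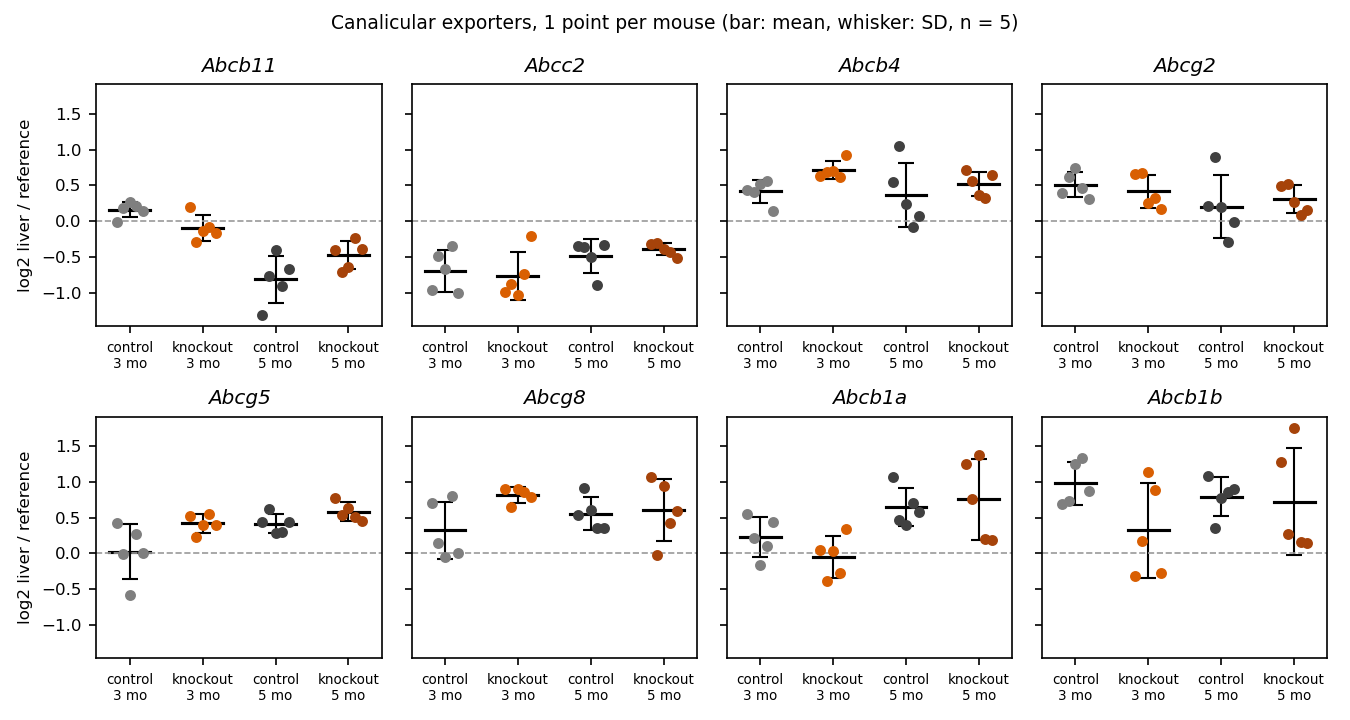
Log2 ratio of liver over reference for 8 canalicular exporters, 1 point per mouse in 4 groups of 5, with a bar at the mean and whiskers of 1 SD. Abcb11 has means of -0.81 and -0.47 in the 5-month groups, Abcc2 is below 0 in all 20 mice, and Abcb4 lies above 0 in 19 of 20.

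Basolateral exporters, which return conjugates and drugs to blood, had 13 probes for 7 genes, with genotype medians of -0.00 at 3 months and 0.01 at 5 months. Abcc3 (MRP3) had means of 0.28, 0.31, 0.19 and 0.33 and passed against the reference in 5-month knockouts (adjusted p = 0.0399). Abcc4 (MRP4) also passed there, at 0.58 (adjusted p = 0.0191), with means of 0.16, 0.16 and 0.46 in the other groups, but by orientation it read 0.01 and 1.20. Abcc12 had -0.50, 0.03, 0.60 and 0.51, with no group called. The first Abcc1 (MRP1) probe was called below the reference at 5 months (-0.31 in both genotypes) and its second above (0.62 and 0.63). In 5-month controls Abcc5 (MRP5) read 0.70 by its first probe and -0.55 by its second, both called. Abcc6, the hepatocyte transporter whose loss causes ectopic mineralisation, had -0.02, -0.24, -0.21 and -0.22, with no group called. Abcc10 (MRP7) was called below the reference in each group by its first probe, at -0.65, -0.52, -0.75 and -0.52. Its other 3 probes read -0.18, -0.03 and 0.07 in 3-month controls and 0.25, -0.09 and 0.34 in 5-month controls.

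Uptake by OATPs was the family with the lowest median genotype difference at 3 months. Slco1a1, the main male-predominant OATP of mouse liver, had log2 ratios of 0.69, 0.88, 0.92, 0.50 and 0.43 in controls of 3 months. The knockouts had 0.13, 0.37, 0.16, 0.26 and -0.18, and no knockout reached the lowest control. The difference was -0.53 ± 0.20, or 1.45-fold lower, and was not called (adjusted p = 0.473). It was -0.49 with liver in Cy5 and -0.58 with liver in Cy3, and -0.57 and -0.39 within the 2 runs of 3 months. A second probe gave -0.54 ± 0.23 (adjusted p = 0.559).

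Slco1a4, a neighbouring OATP that xenobiotics induce, had 0.91, 1.44, 1.09, 1.53 and 0.95 in controls of 3 months and 0.41, 0.32, -0.05, -0.12 and 0.94 in knockouts. Only knockout 5 reached the control range, and the difference of -0.88 ± 0.30 was not called (adjusted p = 0.389). Its second probe had 0.35, 0.43, 0.23, 0.22 and 0.29 against -0.10, -0.06, -0.05, -0.25 and -0.61, with no overlap (-0.52 ± 0.19, adjusted p = 0.458). Against the reference the probes parted at 5 months: the controls averaged 0.66 by the first and -0.39 by the second, each called.

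All 6 probes of the 4 Slco1a genes lay lower in knockouts at 3 months, from -0.95 for Slco1a6 to -0.47 for Slco1a5, with a median of -0.54. The Slco1a6 value was -1.93 with liver in Cy5 and 0.02 with liver in Cy3, while the other 5 probes lay lower in both orientations. At 5 months 3 lay higher and 3 lower, and the median was -0.04. These genes lie together on chromosome 6, in the order Slco1c1, Slco1b2, Slco1a4, Slco1a1, Slco1a6 and Slco1a5 with Gm5724 and Gm6614 among them. Slco1a sequences are alike, so their probes may share signal and are not independent. Slco1a5 and Slco1a6 read below the reference with liver in Cy5 and above it with liver in Cy3 in both genotypes at 3 months.

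The 5-month knockouts of the first 2 Slco1a genes split by run. Slco1a1 had 0.54 and 0.66 in knockouts 1 and 2 and -0.22, -0.47 and -0.17 in knockouts 3, 4 and 5, beside -0.08, 0.12, 0.59, 0.06 and 0.50 in controls. Slco1a4 had 1.18 and 1.55, then 0.03, 0.52 and 0.14, beside -0.05, 0.57, 0.44, 0.91 and 1.42. No knockout of one run overlapped with the other for either gene, nor for 44 of the 135 members (32.6%), beside 27.5% of all probes. The 5-month difference over both runs was -0.17 for Slco1a1 and 0.03 for Slco1a4, while within the shared run it was 0.36 and 0.70. Over the members, 35 had opposite signs in these 2 readings at 5 months. Genotype differences in both 3-month runs had 1 sign in 75.

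Slco1b2, the liver OATP that takes up bilirubin and bile acids, had means of 0.47, 0.19, 0.13 and 0.25, called in 3-month controls (adjusted p = 0.006471). Its 3 probes differed between genotypes by -0.29 to 0.06 at 3 months and 0.12 to 0.37 at 5 months, with no call. Slco2b1, a broadly expressed OATP that carries steroid sulphates, was called above the reference in each group, at 0.49, 0.74, 0.36 and 0.43 (adjusted p = 0.004363, 0.000226, 0.0326 and 0.0121). Of its 20 values, 3-month control 5 alone was below 0, at -0.05.

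The OATPs known mainly from other tissues often read apart by orientation. Slco6c1, a testis OATP, had means of 0.24, -0.35, 0.83 and 0.66 and was called above the reference in both 5-month groups, but in knockouts it read -0.34 with liver in Cy5 and 1.75 with liver in Cy3. Slco6d1 (0.86) and Slco1c1 (0.93), a thyroid hormone carrier of brain vessels, were called in 5-month controls. Slco5a1 was called in both 5-month groups by its first probe (0.53 and 0.50). Averaged over its 2 probes it read 0.32 in controls and 0.12 in knockouts, called in controls alone (limma adjusted p = 0.0399 and 0.427). Slco2a1, the prostaglandin transporter, was called below the reference in 5-month controls (-0.36). Slco3a1 was called in 3-month knockouts by its first probe (-0.37). Averaged over its 4 probes it read -0.40 in 3-month controls and -0.23 in knockouts, called in controls alone (limma adjusted p = 0.0166 and 0.155). By first probes Slco4a1, Slco4c1 and Slco6b1 had no call, with means in 5-month knockouts of -0.39, 0.64 and 1.08.

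**Figure D3:**
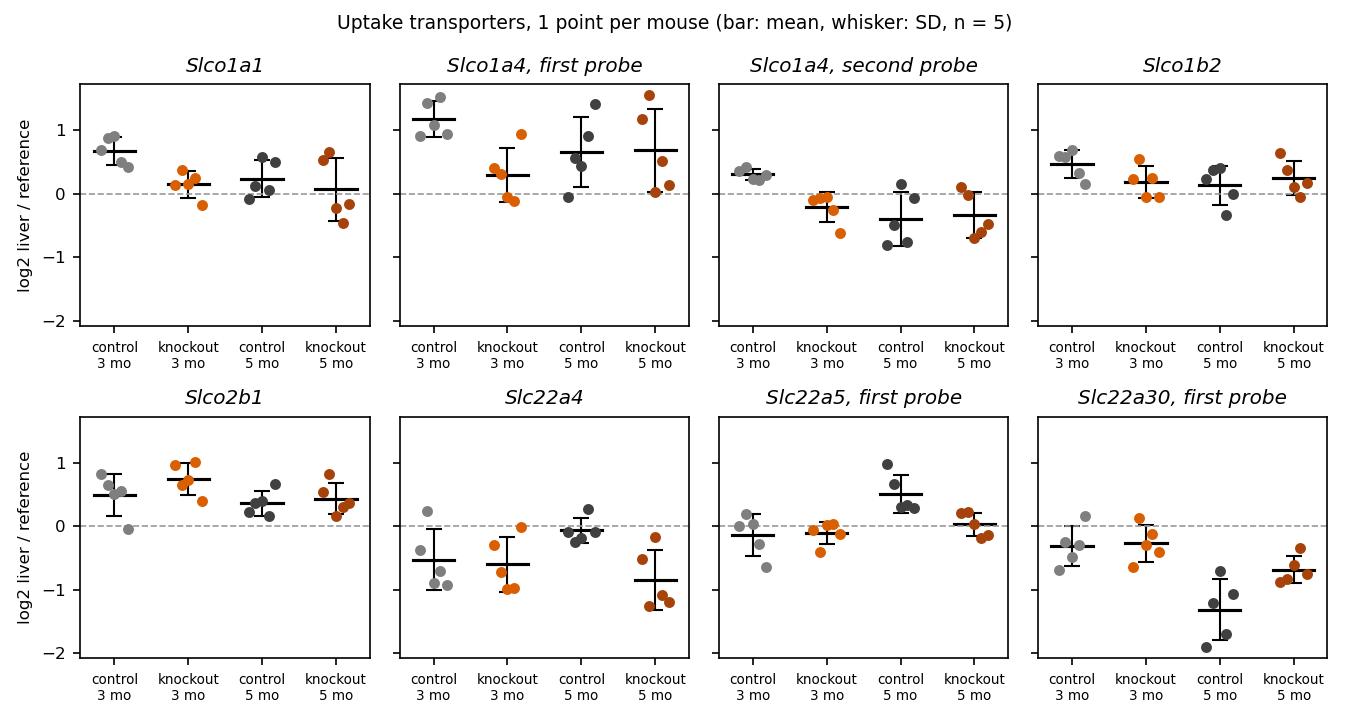
Log2 ratio of liver over reference for 8 uptake transporter probes, 1 point per mouse in 4 groups of 5, with a bar at the mean and whiskers of 1 SD. The 3-month knockouts lie below the 3-month controls for Slco1a1 and the second Slco1a4 probe without overlap, and Slco2b1 lies above 0 in 19 of 20 mice.

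SLC22 carriers of organic anions, cations and carnitine had genotype medians of -0.03 at 3 months and -0.01 at 5 months. The carnitine carrier Slc22a5 (OCTN2) had 0.97, 0.66, 0.30, 0.33 and 0.28 in controls of 5 months and 0.20, 0.22, 0.03, -0.19 and -0.14 in knockouts. The groups did not overlap, and the difference of -0.49 ± 0.17 was not called (adjusted p = 0.314). It was -0.30 within the shared run. A second Slc22a5 probe read -0.46 and -0.53, below the reference in both, where the first probe read 0.51 and 0.02.

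Slc22a4 (OCTN1), the ergothioneine carrier near Slc22a5 on chromosome 11, had -0.09, -0.24, -0.18, 0.26 and -0.09 in 5-month controls and -0.51, -1.26, -0.18, -1.09 and -1.20 in knockouts. Knockouts 1, 2, 4 and 5 lay below every control, and knockout 3 within their range. The difference was -0.78 ± 0.25 (adjusted p = 0.281), and -0.82 within the shared run. At 3 months it was -0.07 for Slc22a4 and 0.03 for Slc22a5. Slc22a21 (OCTN3), between them, had 0.31, 0.27, 0.52 and 0.52, with no group called. Slc22a20, an organic anion transporter known from olfactory tissue, had -0.29, -0.59, -0.25 and -0.07, and its genotype differences at the 2 ages differed by 0.49 ± 0.20 (adjusted p = 0.590).

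Slc22a30, an organic anion transporter-like gene, lay farthest below the reference among first probes in 5-month controls, at -1.91, -1.21, -0.72, -1.70 and -1.08. Knockouts had -0.89, -0.83, -0.62, -0.35 and -0.75, above all controls but control 3. The difference was 0.63 ± 0.21, or 1.55-fold higher (adjusted p = 0.293). Its other probes gave 0.67 ± 0.17 and 0.54 ± 0.22 (adjusted p = 0.151 and 0.389), and within the shared run the 3 gave 0.46, 0.79 and 0.54. Leaving out control 3 gave 0.84 for the second probe, which was then called (adjusted p = 0.02324). At 3 months the 3 differences were 0.05, 0.06 and 0.07. Slc22a30 has close copies beside it on chromosome 19 (Slc22a19, Slc22a26 and Slc22a29) that may share its signal.

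Slc22a13 and Slc22a16, known mainly from kidney and testis, were called below the reference in all 4 groups. Slc22a13, a urate and nicotinate carrier, had means of -0.92, -0.71, -0.67 and -0.99 (adjusted p = 4.465e-05, 0.0004557, 0.0009049 and 4.499e-05). Slc22a16, a carnitine carrier, had -0.65, -0.76, -0.85 and -0.74. Slc22a2, the only organic cation transporter of that list on the array with its own symbol, had 0.15, 0.21, 0.36 and 0.09, with no group called. Slc22a29 had 0.78, 0.45, 0.74 and 1.03, but by orientation -1.63 and 3.18 in 3-month controls.

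Lipid transporters of the ABCA and ABCG families were 10 probes for 6 genes. Abca1, which loads cholesterol onto apolipoprotein A-I, was called below the reference in each group, at -0.32, -0.39, -0.87 and -0.75 (adjusted p = 0.0492, 0.0202, 8.044e-05 and 0.0003062). At 5 months its controls had -1.35, -0.74, -0.86, -0.96 and -0.42 and knockouts -0.80, -1.01, -0.68, -0.72 and -0.53. The genotypes overlapped. Abcg1, which moves sterol to high-density lipoprotein, had -3.75, -2.34, -2.38, -1.11 and -0.66 in controls of 3 months and -1.76, -0.84, -1.07, -0.94 and -0.67 in knockouts.

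The Abcg1 difference of 0.99 ± 0.39 was not called (adjusted p = 0.503). It was 1.53 within the run of controls 1 to 3 and -0.01 within the other, and its second probe gave 0.08. Abca7, an exporter of phospholipid, gave -0.58 ± 0.19 at 3 months (adjusted p = 0.374), with 0.01 by its second probe and orientations of -0.54 and 0.91 in the controls.

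The smallest p of a single probe at 5 months was that of the second probe of Abca5, a lysosomal lipid transporter. Controls had -0.06, -0.24, -0.02, -0.35 and -0.23 and knockouts 0.32, 0.28, 0.50, 0.31 and 0.29, with no overlap. The difference was 0.52 ± 0.13, or 1.43-fold (adjusted p = 0.143), but its other probes gave 0.13 and -0.29. The non-member probes most alike to it in deviations from group means over the 20 mice were those of Ccdc50, Kcnk7, Commd2, Cdca7l and Haus6 (Pearson r from 0.80 to 0.83, a description). Abca5 lies on chromosome 11 with Abca8b, Abca8a, Abca9 and Abca6. Of the 9 probes of these 5 genes, 7 lay higher and 2 lower in knockouts at 5 months, none called. The first Abca6 probe gave 0.43 and its second -0.16. Abca8a gave 0.53, but its knockouts averaged 0.47 in the shared run and -0.45 in the other, without overlap, beside -0.62 in controls.

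Abca2, a lipid transporter of brain and lysosomes, was called below the reference at 5 months, at -0.65 in controls and -0.41 in knockouts, which differed by 0.24 ± 0.13 (adjusted p = 0.544). Abcc9, the sulphonylurea receptor SUR2 of potassium channels, gave 0.37 ± 0.19 at 5 months by its first probe (adjusted p = 0.507) and -0.22 by its second. Abca13 was called highest above the reference in 5-month knockouts, at 1.24 (adjusted p = 0.0253), but read -0.09 with liver in Cy5 and 2.52 with liver in Cy3. Abca16 was called there too, at 0.91, with 0.34 and 1.42 by orientation. Abca15 was called below the reference at 3 months by its first probe (-0.51 and -0.59), as was Abcb9, the lysosomal peptide transporter (-0.65 and -0.46). Averaged over its 3 probes Abca15 stayed called (-0.54 and -0.37, limma adjusted p = 0.00263 and 0.0293). Abcb9 averaged over its 4 probes was not called (-0.22 and -0.11, adjusted p = 0.0797 and 0.408).

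Beside these, 3 members at 3 months had groups that did not overlap (2.22%, beside 1.31% of all probes): Abcb4 above, and Slco1a1 and the second probe of Slco1a4 below. At 5 months there were 2 (1.48%, beside 3.92%): Abca5 above and Slc22a5 below. The background of calls between genotypes was 0.0355% at 3 months and 0.145% at 5 months. Quantile normalisation called 766 of all 36607 probes at 5 months, and 4 of the 135 members. These were Abca5 (second probe, 0.70), Slc22a30 (1.23 and 1.04 by 2 probes) and Abcg3 (second probe, -1.22). In the values as deposited that Abcg3 probe gave -2.35 with liver in Cy5 and 0.62 with liver in Cy3. The first Abcg3 probe gave -0.14 over both orientations.

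Intracellular ABC proteins had no call between genotypes. The first probe of Abcd3, the peroxisomal fatty acid transporter PMP70, gave 0.37 ± 0.15 at 3 months and its second 0.40 (adjusted p = 0.547 and 0.559). Abcb6, a porphyrin transporter, was called above the reference in all groups, at 0.57, 0.59, 0.81 and 0.64 (adjusted p = 0.000218, 0.0002122, 1.925e-05 and 0.000153), and its lowest mouse was at 0.36. The mitochondrial ABCB probes had genotype medians of 0.03 and 0.00. Abce1, the ribosome recycling factor, was called above the reference in each group by its first probe (0.63, 0.32, 0.50 and 0.29), although its orientations read -0.07 and 1.32 in 3-month controls. The 10 ABCE and ABCF probes had genotype medians of 0.02 and 0.03, with differences from -0.31 to 0.20 over both ages.

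**Figure D4:**
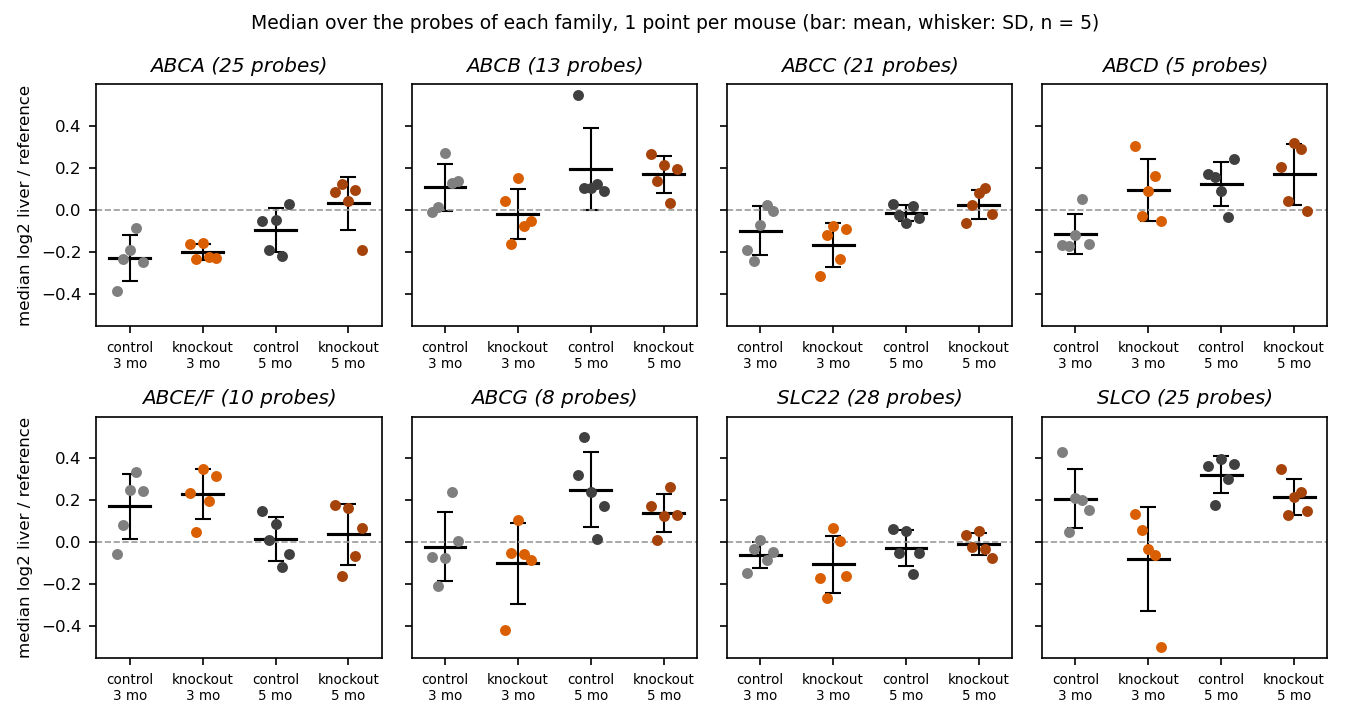
Median log2 ratio of liver over reference over the probes of each of 8 families, 1 point per mouse in 4 groups of 5, with a bar at the mean and whiskers of 1 SD. Taken over the probes' group means, the medians run from -0.24 (ABCA, 3-month knockouts) to 0.40 (SLCO, 5-month knockouts).

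Against the reference, many members were called, with each mouse set against 0. This leaves out the spread of the reference itself, a single pool from which DEN, genotype and, at 5 months, age differ together. In 3-month controls 17 members were called higher and 26 lower (12.6% and 19.3%, beside 12.3% and 17.6% of all probes). In 3-month knockouts there were 15 and 24 (11.1% and 17.8%, beside 10.6% and 17.6%). At 3 months the shares of members were thus near those of all probes. In 5-month controls 28 were called higher and 25 lower (20.7% and 18.5%, beside 14.7% and 14.5% of all probes). In 5-month knockouts there were 32 and 21 (23.7% and 15.6%, beside 17.1% and 12.4%). Without 5-month control 1 the calls in that group numbered 34 and without control 4 they numbered 32, and without the array in question of control 4 31. With that array's sign turned 13 were left. In 5-month knockouts leaving out knockout 3 gave 32, and leaving out knockouts 2 and 3 gave 16. Counts over all probes were not made with these mice or arrays left out or turned, so whether the members stand out cannot be told.

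The split between higher and lower moved with the centring of arrays. With each array centred on its median, 23 members were called higher and 18 lower in controls at 3 months, and 21 and 14 in knockouts. At 5 months the calls were 21 and 32 for controls and 22 and 26 for knockouts. Over all probes the calls moved the same way. For controls at 3 months they went from 4512 higher and 6436 lower to 6020 and 4699. For 3-month knockouts 3870 and 6442 became 5542 and 3864. At 5 months 5372 and 5304 became 3931 and 6755 for controls, and 6249 and 4538 became 4473 and 5835 for knockouts. The median over all probes was -0.06, -0.12, 0.09 and 0.11 as deposited, and 0.02, -0.02, 0.02 and 0.04 after centring. Over the members it was -0.00, -0.08, 0.11 and 0.13 as deposited, and 0.07, 0.02, 0.05 and 0.07 after centring. By family, SLCO had medians of 0.24, -0.05, 0.27 and 0.40, ABCA -0.19, -0.24, 0.01 and -0.08, ABCB 0.10, -0.05, 0.14 and 0.17 and ABCC -0.14, -0.18, -0.01 and 0.05. ABCE and ABCF together had 0.25, 0.24, 0.07 and 0.01 and ABCD -0.12, 0.10, 0.07 and 0.21. SLC22 had -0.07, -0.11, 0.04 and 0.02 and ABCG -0.06, -0.18, 0.31 and 0.23. The -0.05 of SLCO and of ABCB both became 0.06 when centred, and the 0.01 of ABCA became -0.06. The 0.05 of ABCC became -0.02 and the 0.01 of ABCE and ABCF became -0.05. For SLC22, -0.07 became 0.01, 0.04 became -0.03 and 0.02 became -0.05, and for ABCG -0.06 became 0.02.

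The orientations often disagreed at 3 months. Their signs matched in 59 of 135 members in each 3-month group, in 111 in 5-month controls and in 80 in 5-month knockouts. Counting calls with 1 sign in both orientations left 33, 33, 53 and 42 members. These are 24.4%, 24.4%, 39.3% and 31.1% of the members, beside 23.1%, 21%, 28.8% and 25.8% of all probes. In 3-month controls the orientations lay over 1 log2 unit apart for 54 members, 13 of 25 SLCO, 12 of 25 ABCA, 10 of 21 ABCC and 10 of 28 SLC22 probes among them. Those 54 had medians of 0.51 and 0.50 in the 5-month groups, with 19 of 20 and 19 of 21 calls higher. The other 81 had -0.09 and -0.01, with 9 of 33 and 13 of 32 calls higher. All probes divided alike, with 0.41 and 0.31 for 15616 and -0.10 and -0.03 for 20991. The part of the dyes in these levels was not tested.

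**Figure D5:**
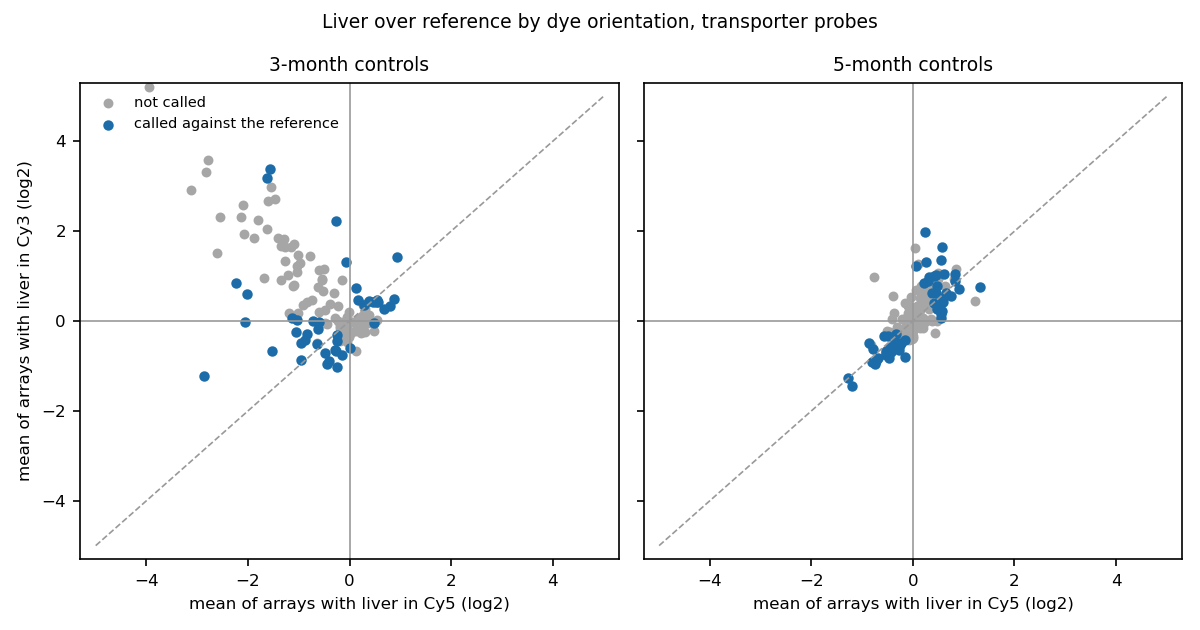
Mean log2 ratio of liver over reference from arrays with liver in Cy5 (horizontal axis) and from arrays with liver in Cy3 (vertical axis), 1 point per probe for 135 probes, in 3-month and 5-month controls; the dashed line is equality and coloured points were called. At 3 months many points lie far off the line, with liver in Cy3 reading higher, and 59 have 1 sign in both, while at 5 months 111 do.

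Called in all 4 groups and of 1 sign in both orientations of each were 3 members above the reference (Abcb4, Abcb6 and Slco2b1). Those below it were 7: Abca1, Abca6 by its second probe, Abcc2 and Abcc10 by their first probes, Abcg4, Slc22a13 and Slc22a16. The same count was not made over all probes, so whether these numbers are unusual cannot be told. All 4 groups were set against the same reference pool. Averaged over its probes, Abca6 was called in 3-month controls alone (-0.64, limma adjusted p = 0.00322). Abcc10 averaged likewise was called in 3-month knockouts alone (-0.38, limma adjusted p = 0.00452). Abcc2 averaged likewise was not called in 5-month knockouts (-0.17, limma adjusted p = 0.299). Abcg4, a sterol exporter best known from brain, had means of -0.63, -0.52, -0.52 and -0.49. Called in all 4 groups but with mixed orientations were Abce1 above and the second Slc22a5 probe below. Probes of a gene could differ in direction: among 39 genes with several, 5 had probes called in opposite directions in at least 1 group (Abca9, Abcc1, Abcc5, Slc22a5 and Slco1a4).

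Other hepatic transporters, 19 of 24 listed, also had no call between genotypes, with medians of 0.07 at 3 months and -0.06 at 5 months. The bile acid importer Slc10a1 had means of 0.06, 0.09, -0.10 and -0.13. The cation exporter Slc47a1 was called above the reference in each group, at 0.33, 0.43, 0.28 and 0.46. Of 25 regulators and membrane anchors of these transporters, out of 27 listed, none was called between genotypes (medians 0.05 and 0.11). Nr0b2 (SHP), the bile acid-induced repressor, was called above the reference at 1.82, 1.78, 0.65 and 0.93, and Rxra, the partner of many nuclear receptors, below it at -0.98, -0.74, -0.73 and -0.63. The bile acid receptor Nr1h4 was called in 3-month knockouts alone, at -0.39 (adjusted p = 0.0289).

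Beside these values, markers of liver cell types lay to one side in several lists, with 1 gene called. At 5 months, of 12 endothelial markers 11 lay higher in knockouts (median 0.35). Their mean per mouse ran from -0.33 to -0.23 in controls and from -0.04 to 0.11 in knockouts. Of 12 Kupffer and macrophage markers 9 lay higher (median 0.37; -0.34 to 0.08 against -0.08 to 0.50), and of 14 hepatocyte markers 13 (median 0.17; -0.42 to 0.20 against 0.09 to 0.31). Of 7 neutrophil markers 1 lay higher (median -0.23) and of 7 cholangiocyte markers 5 (median 0.18). In the remaining lists 6 of 11 stellate and fibroblast markers and 5 of 9 T and NK cell markers lay higher. So did 3 of 6 B and plasma cell, 2 of 5 erythroid and 3 of 8 kidney and gut markers. At 3 months the endothelial, Kupffer and hepatocyte medians were -0.00, -0.05 and -0.05, while 0 of 5 erythroid markers (median -0.18) and 6 of 6 B and plasma cell markers (median 0.12) lay higher in knockouts. Dcn, a fibroblast marker, was the 1 gene called in any marker list, at 5 months (adjusted p = 0.0478). The reference is itself liver, so these ratios check the tissue only relative to it. Their part in the transporter values was not tested.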

How the data were processed

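RNA came from snap-frozen livers on a gradient of caesium chloride, as the labels' protocols state. In mAdb the authors left out invalid features and scaled arrays to the 50th percentile of median signal, as the series' design text gives it. What was deposited are log2 ratios, 36607 probes on 38 arrays. Their base follows from the spacing of the values, of which 9976 sat at small whole ratios for base 2, 3071 for base e and 2734 for base 10. Deposited centring was kept. The numerator and the background handling are not stated, and without signals no filter on dim probes was set. Precision is limited by how many arrays there are.

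Ratios were all set as liver over reference. A dye effect per probe, taken from 18 mice with both orientations, was removed before a mouse's arrays were averaged. limma 3.58.1 in R 4.3.3 (lmFit, eBayes) fitted 20 mice in 4 groups, with Benjamini-Hochberg adjustment over all probes and calls at 0.05. It was tested on simulated data with the same dye effect at both ages, so a dye effect that differs between ages was not covered. The p-values measure the spread between these mice. Symbols come from GEO's platform annotation: 26926 probes had 1, 203 several and 9478 none. Unturned, the arrays of 1 mouse correlated at 0.34 to 0.51 at 3 months and -0.70 to 0.18 at 5 months, and values that follow the liver would correlate below 0.

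Members and lists were chosen with earlier results of these data known, which may hold for the 2 genes set aside too. Named were the 8 members of smallest p per genotype comparison and 4 in the difference of differences, up to 12 called genes of largest size per group against the reference, the first probes of the canalicular, basolateral, uptake, cation and carnitine lists whatever their values, and the 5 probes most alike to the smallest-p member at 5 months. Further probes of a gene, members whose groups did not overlap and the remaining examples were chosen after their values were seen. Alternatives covered normalisation, centring, orientation, single arrays, runs and each mouse left out.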

Additional observations from a re-analysis of the deposited data

Results flagged for a closer look

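In 11 of 216 groups of 5 mice (54 transporter genes, first probes), 1 mouse stood apart from the other 4 by Dixon's criterion, which chance alone gives in about 1 in 20 groups. At 3 months these were knockout 5 for Abca6 (0.76, the others -0.25 to 0) and Abcb4 (0.92, the others 0.62 to 0.70), and knockout 1 for Slco1c1 (0.72, the others -0.38 to -0.23). Among the 3-month controls they were control 4 for Abcb9 (-0.15, the others -0.92 to -0.70), control 5 for Abcd3 (-0.16, the others 0.29 to 0.44) and control 2 for Abcg4 (-0.76, the others -0.63 to -0.58). Control 4 of 5 months stood apart for Abcc2 (-0.89, the others -0.49 to -0.33). The remaining 4 were the 5-month knockouts with a single dye orientation. Knockout 3 had 2.06 for Slco1a6 (the others 0.30 to 0.75), 1.86 for Slco1c1 (0.15 to 0.50) and 1.84 for Slco6d1 (-0.15 to 0.42). Knockout 2 had -0.79 for Slc22a2 (0.16 to 0.50).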

How the results depend on the processing

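Of the values of single genes under alternatives other than leaving out a mouse, 408 kept direction and side of the threshold, 26 were no longer called, 1 passed (Slc22a30 at 5 months under quantile normalisation, 1.23) and 1 turned (Abcg1 at 3 months within 1 run, -0.0118). Leaving out mice kept 451 and took the call from 29. Calls between genotypes at 5 months became 4 under quantile normalisation and 1 by the methods' t-test, and 0 to 1 without each mouse (1 without control 3). At 3 months and for the difference of differences they stayed at 0 without each mouse. The member median at 5 months was 0.03. It was -0.11 from arrays with liver in Cy5, 0.16 with liver in Cy3, 0.0917 without the array in question of control 4 and -0.0361 with run as a covariate, and 0.01 to 0.05 without each mouse. At 3 months leaving out mice gave -0.03 to 0.01. The cause of these shifts was not tested.

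Calls against the reference ranged without each mouse from 31 to 39 (3-month controls), 28 to 43 (3-month knockouts), 32 to 44 (5-month controls) and 32 to 47 (5-month knockouts). Averaging the probes of a gene gave 27, 23, 31 and 31 of 80 genes. In 5-month controls leaving out the array in question of control 4 gave 31 and turning its sign 13. In 5-month knockouts leaving out knockouts 2 and 3 gave 16. None of these counts was made over all probes, so whether the changes are particular to the members cannot be told. The replicate numbers do not pair the mice: deviations of the same number correlated at -0.07 to 0.11 at 3 months and -0.18 to 0.17 at 5 months, and with the replicate number as a block 0 members were called at either age, with medians of -0.00 and 0.03.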
